A study of Mus musculus with 12 samples.

Results

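The 32 genes described here code for chaperones and enzymes of the endoplasmic reticulum (ER) and for the sensors of its unfolded protein response. They were chosen by name, with earlier results of these data known, and all 32 were found among the 18604 genes of the deposited tables. RNA came from hearts of male C57Bl/6J mice aged 12 weeks, and poly(A) RNA was selected from Trizol extracts. The 4 groups were mice on a BCAA-free diet (BCAA, the branched-chain amino acids leucine, isoleucine and valine) with transverse aortic constriction (TAC), mice on that diet with sham surgery, mice on a control diet with TAC and mice on the control diet with sham surgery. Each group had 3 libraries. The control diet held all essential amino acids, with BCAA at the level of usual chow. Mice began a diet 4 days before surgery, stayed on it, and gave their hearts 1 week after surgery. TAC narrows the aorta and so raises the pressure against which the left ventricle pumps. The labels do not say whether the 3 libraries of a group were 3 animals, so p-values measure the spread between these libraries, which may be technical.

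Secreted and membrane proteins enter the ER through the Sec61 channel, fold there with the help of chaperones and disulfide enzymes, and are sent to the proteasome if they fail to fold. The sensors IRE1 (gene Ern1), PERK (Eif2ak3) and ATF6 (Atf6) answer unfolded protein in the ER and raise the RNA of chaperones and of the degradation machinery, in part through the transcription factor XBP1. In the loaded heart this system serves growing muscle cells as well as fibroblasts that secrete collagen.

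Levels are given as normalized reads, which are deposited read counts put on 1 scale over the 12 libraries. Depth ran from 74206246 to 110452636 reads per library. The library farthest from its group was control diet TAC 3, with an SD over all genes of 0.335 in log2 units (0.216 to 0.274 in the other libraries), and an SD over the 32 members of 0.178 (0.0475 to 0.126). The structured RNAs Rn7sk, Rmrp and Rpph1, which carry no poly(A) tail, together held 63.6, 7.79 and 76.1 CPM (reads scaled to library size) in libraries 1, 2 and 3 of BCAA-free TAC hearts. BCAA-free sham libraries were at 3.02 to 3.89 CPM, control diet TAC libraries at 3.83 to 19.3, and control diet sham libraries 1, 2 and 3 at 2.99, 116 and 2.06. Calls in the comparisons that use BCAA-free TAC libraries are therefore also given without BCAA-free TAC 1 and 3 and, where it enters, control diet sham 2.

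The promoters are shown first because the best known DNA signal of this response, the ER stress element, sits close to the start site of classical chaperone genes. RefSeq windows on GRCm38.p6, from 250 bases before to 50 after the start, were matched for 26 members (Atf6, Hyou1, Manf, Derl1, Ero1l and Sec61a1 were not matched). Both strands were searched for 3 motifs, which all hold CCACG on 1 strand and so can overlap. They were the ER stress element (CCAAT and CCACG with 9 bases between), its second form (ATTGG and CCACG with 1 base between) and the unfolded protein response element TGACGTGG. The first was present in the windows of 9 of 26 members (34.6%), against 37 of 27025 genes in all (0.137%). These 9 were Hspa5, Canx, Calr, Hsp90b1, Pdia6, Dnajc3, Creld2, Syvn1 and Derl3. The second form was present for Dnajb11 and Herpud1, 2 of 26 members (7.69%), against 12 genes in all (0.0444%). TGACGTGG was in 0 of the 26 windows, against 0.714% of all genes. The element was originally defined in part from chaperone promoters of this kind, so these shares describe the windows and are no independent finding. Below are the stretches of 5 members that fell with TAC on the BCAA-free diet, and of Herpud1, which was higher on that diet in both surgeries. They read 5′ to 3′ on the strand of the gene, with the element in capitals and 25 bases on each side.
Hspa5, chr2:34772000-34772068 (+): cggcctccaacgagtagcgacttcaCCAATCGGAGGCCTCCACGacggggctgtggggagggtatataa
Canx, chr11:50325775-50325843 (-): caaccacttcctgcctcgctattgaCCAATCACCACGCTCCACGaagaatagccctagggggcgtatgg
Hsp90b1, chr10:86705508-86705681 (-), 2 copies: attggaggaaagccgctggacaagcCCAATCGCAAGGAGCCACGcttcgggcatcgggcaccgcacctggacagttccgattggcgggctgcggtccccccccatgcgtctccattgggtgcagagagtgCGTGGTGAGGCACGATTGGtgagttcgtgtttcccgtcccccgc
Calr, chr8:84847050-84847118 (-): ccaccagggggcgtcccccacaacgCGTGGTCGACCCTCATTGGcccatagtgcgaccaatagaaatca
Pdia6, chr12:17266466-17266534 (+): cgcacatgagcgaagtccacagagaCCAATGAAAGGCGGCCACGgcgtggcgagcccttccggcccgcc
Herpud1, chr8:94386352-94386412 (+): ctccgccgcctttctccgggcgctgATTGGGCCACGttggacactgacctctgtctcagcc
In Calr and in the copy of Hsp90b1 nearer the start the element lies on the opposite strand, so its letters appear reversed and complemented. In Hspa5 it began at position -65 from the RefSeq start and in Herpud1, in its second form, at position -52.

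All 32 members passed the filter on low values, a mean of at least 10 normalized reads, in every comparison. Per kb of exon, the mean level over the 12 libraries was highest for Hspa5, which codes for the chaperone BiP, at 11014 normalized reads per kb. Calr (8088), Hsp90b1 (7709), Herpud1 (6988), P4hb (6910) and Canx (5677) followed on the same scale. The sensors were lower than these genes. Atf6 was at 1129 normalized reads per kb, rank 15 of the 32. Ern1 at 169 and Eif2ak3 at 153 per kb were near the bottom, at ranks 30 and 31. Derl3, a degradation gene, was lowest at 5.33 per kb, and its 6.71 to 17.1 normalized reads in single libraries give little precision. Apart from Derl3, the ratio of the highest to the lowest library ran from 1.16 for Dnajb11 to 2.06 for Herpud1 and 2.11 for Edem1. The members together took 0.262 to 0.263% of all reads in BCAA-free TAC, 0.295 to 0.317% in BCAA-free sham, 0.325 to 0.332% in control diet TAC and 0.275 to 0.305% in control diet sham libraries. The share was thus lowest in TAC hearts on the BCAA-free diet and highest in TAC hearts on the control diet. Mitochondrial reads made up 21.8 to 22.5% in BCAA-free TAC, 22.6 to 23.6% in BCAA-free sham, 17.9 to 19.9% in control diet TAC and 22.4 to 27.1% in control diet sham libraries. Of reads that were not mitochondrial, members took 0.335 to 0.339% in BCAA-free TAC, 0.385 to 0.409% in BCAA-free sham, 0.397 to 0.408% in control diet TAC and 0.363 to 0.399% in control diet sham libraries, so BCAA-free TAC libraries stayed lowest while the other 3 groups overlapped.

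**Figure D1:**
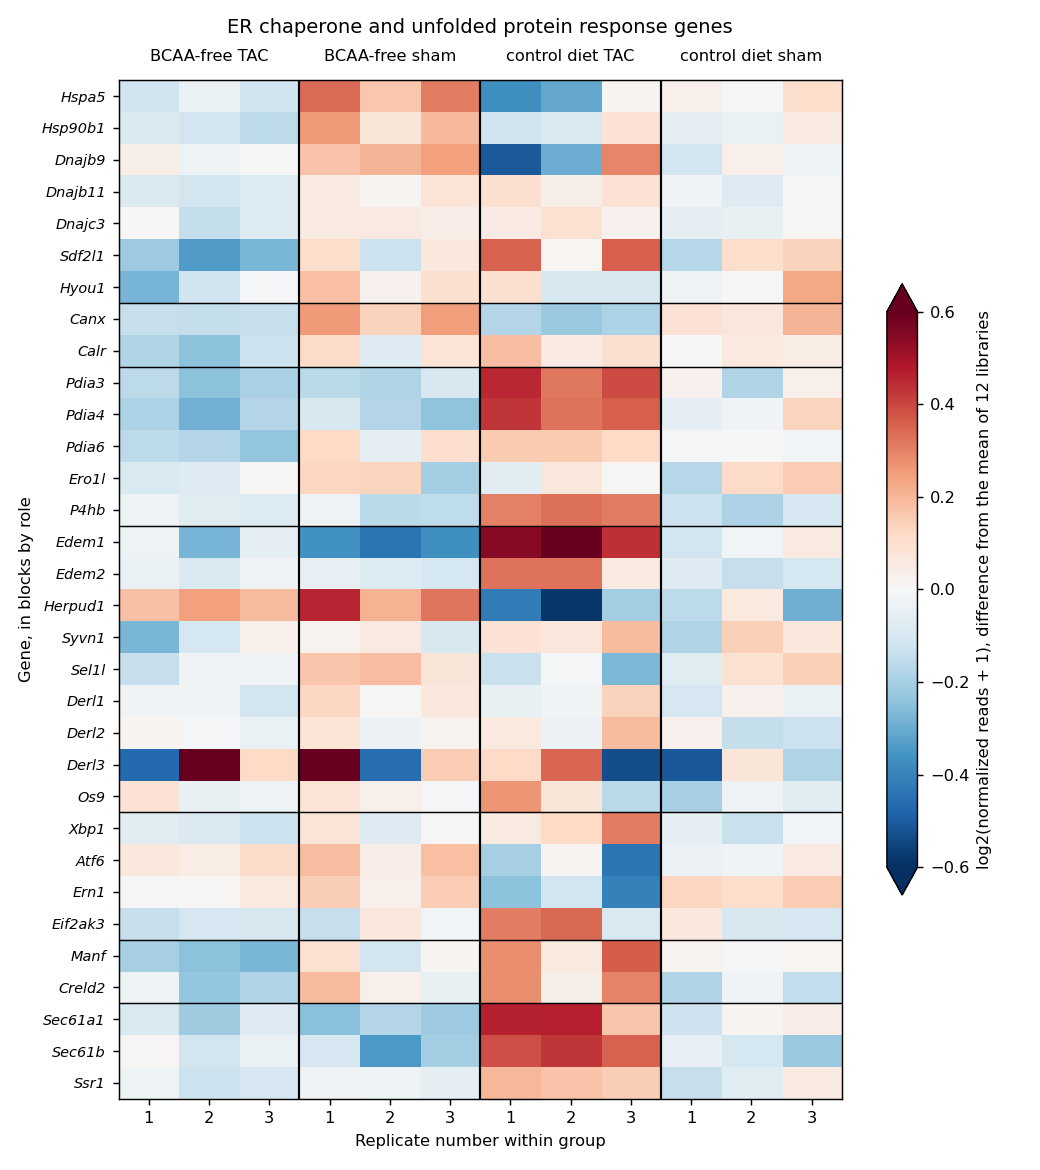
Level of each of the 32 genes in each library, as log2(normalized reads + 1) minus the mean of the 12 libraries (colour, red higher and blue lower), with genes in blocks by role and libraries in columns by group. The chaperones Hspa5, Hsp90b1 and Canx are on average highest in BCAA-free sham libraries, and Pdia3, Pdia4, P4hb, Edem1, Sec61a1 and Sec61b are highest in control diet TAC libraries.

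RNA of the major folding chaperones fell with TAC on the BCAA-free diet. Of the 32 members 8 fell, and 0 rose, by limma with Benjamini-Hochberg adjustment over all 17611 genes tested. Of all genes tested, 4.41% were called lower and 3.31% higher. The 8 were Hspa5, Hsp90b1 and Dnajb9 among the chaperones and their partners, both lectin chaperones Canx and Calr, the disulfide enzyme Pdia6, the degradation adaptor Sel1l and the secreted protein Manf. The members' median log2 change was -0.11, with 26 of 32 below 0, and the median of all genes was 0.006. At an unadjusted p under 0.05, 14 members were lower and 1 higher, where 2114 of the 17611 genes tested were lower and 1996 higher. For rises, edgeR called 0 (612 of the 17611 genes tested) and DESeq2 called 1, Edem1 (4.95% of genes tested). DESeq2 called 9 lower (5.8%), the 8 and Hyou1. In whole hearts, fewer cells of a type and less RNA per cell cannot be told apart.

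Hspa5 (chr2:34771970-34777547) codes for BiP, the main HSP70 chaperone of the ER and the one that holds the stress sensors inactive. It had 42423, 44854 and 42412 normalized reads in BCAA-free TAC 1, 2 and 3, against 58298, 51591 and 57087 in BCAA-free sham 1, 2 and 3. All TAC libraries lay well below all sham libraries. The log2 change was -0.37 ± 0.0601 (SE, adjusted p = 0.00359), a level of 0.775 of that in sham hearts. Hsp90b1 codes for GRP94, the HSP90 chaperone of the ER. It had 29110, 28614 and 27782 normalized reads in BCAA-free TAC, against 37004, 32612 and 35434 in BCAA-free sham libraries. The groups did not overlap, and the log2 change was -0.30 ± 0.0582 (adjusted p = 0.0097). Dnajb9, a J protein that partners BiP, had 4716, 4503 and 4594 normalized reads in BCAA-free TAC, against 5184, 5306 and 5457 in BCAA-free sham libraries. This was a small shift with no overlap, at a log2 change of -0.21 ± 0.0523 (adjusted p = 0.0304). The other chaperone partners lay between -0.30 (Sdf2l1, adjusted p = 0.125) and -0.13 (Dnajc3, adjusted p = 0.177), and limma called none of them. They were Hyou1, Dnajb11, Dnajc3 and Sdf2l1, and each of them was lower in every TAC library than in every sham library. How many of all genes were apart in this way was not counted, so this is a description only.

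Canx (chr11:50293961-50325673) codes for calnexin, the membrane-bound lectin that retains glycoproteins until they fold. It had 24029, 23985 and 24063 normalized reads in BCAA-free TAC, against 31583, 29080 and 31440 in BCAA-free sham libraries. The TAC libraries were nearly alike and all below sham, with a log2 change of -0.36 ± 0.0532 (adjusted p = 0.00214), the smallest adjusted p of any member in this comparison. Calr, for its soluble relative calreticulin, averaged 20431 ± 836 in BCAA-free TAC and 23909 ± 1675 normalized reads in BCAA-free sham libraries (SD, n = 3 each), with a log2 change of -0.23 (adjusted p = 0.0428). Pdia6, a protein disulfide isomerase, had 7713, 7622 and 7308 normalized reads in BCAA-free TAC, against 9357, 8251 and 9243 in BCAA-free sham libraries. The groups were apart, at -0.25 ± 0.0601 (adjusted p = 0.0279). The remaining disulfide enzymes were not called and lay between -0.08 (Ero1l) and 0.05 (P4hb).

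Manf, a small secreted protein released under ER stress, had 2343, 2267 and 2224 normalized reads in BCAA-free TAC, against 2870, 2488 and 2725 in BCAA-free sham libraries. Again no TAC library reached the lowest sham library, and the log2 change was -0.25 ± 0.066 (adjusted p = 0.0427). Sel1l, which links substrates to the ubiquitin ligase HRD1, was at -0.21 ± 0.0576 (adjusted p = 0.0472). Of the other degradation genes, Edem1 was at 0.26 (adjusted p = 0.0738) and the rest between -0.13 (Herpud1) and 0.02 (Edem2). The translocon genes Sec61a1, Sec61b and Ssr1 were at 0.08, 0.17 and -0.05 and were not called.

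These calls leaned on single libraries to different degrees. Canx and Hspa5 were called with any 1 of the 6 libraries left out, but 5 members were called lower without BCAA-free TAC 1, 4 without TAC 2 or without TAC 3, 2 without sham 1 or without sham 3 and 6 without sham 2. Calls over all genes shrank too, from 777 lower with every library to 589 without TAC 1, 635 without TAC 2 and 522 without TAC 3. Without sham 1, sham 2 and sham 3 they were 377, 337 and 297. Sel1l was lost in each of the 6 fits. Without TAC 1 and TAC 3, which are high in structured RNA, 1 member (Canx) was called lower, from a fit with 1 TAC library in which 0.711% of all genes were higher and 0.992% lower. In that fit Hspa5 was at -0.31, Hsp90b1 at -0.29 and Calr at -0.29, and none of these was called. With all 4 groups in 1 model, where the spread is shared by the 12 libraries, Canx was again the 1 member called lower (0.689% of genes tested), and Hspa5 was at -0.37 (adjusted p = 0.0752). Summed cardiomyocyte markers ranged over 6100089 to 6478774 normalized reads in BCAA-free TAC, against 5558376 to 6087191 in BCAA-free sham, and 4 of 8 were called higher and 1 lower. Summed fibroblast markers ranged over 88540 to 113035 in BCAA-free TAC, against 66319 to 73103 in BCAA-free sham, with 4 of 8 called higher and 1 lower. Smooth muscle marker sums were 15848 to 19364 in BCAA-free TAC, against 11163 to 13566 in BCAA-free sham, with 3 of 4 called higher, and 2 of 7 macrophage markers were called higher, with sums of 14573 to 19970 in BCAA-free TAC, against 12825 to 14434 in BCAA-free sham. The part of these markers in the changes was not tested.

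**Figure D2:**
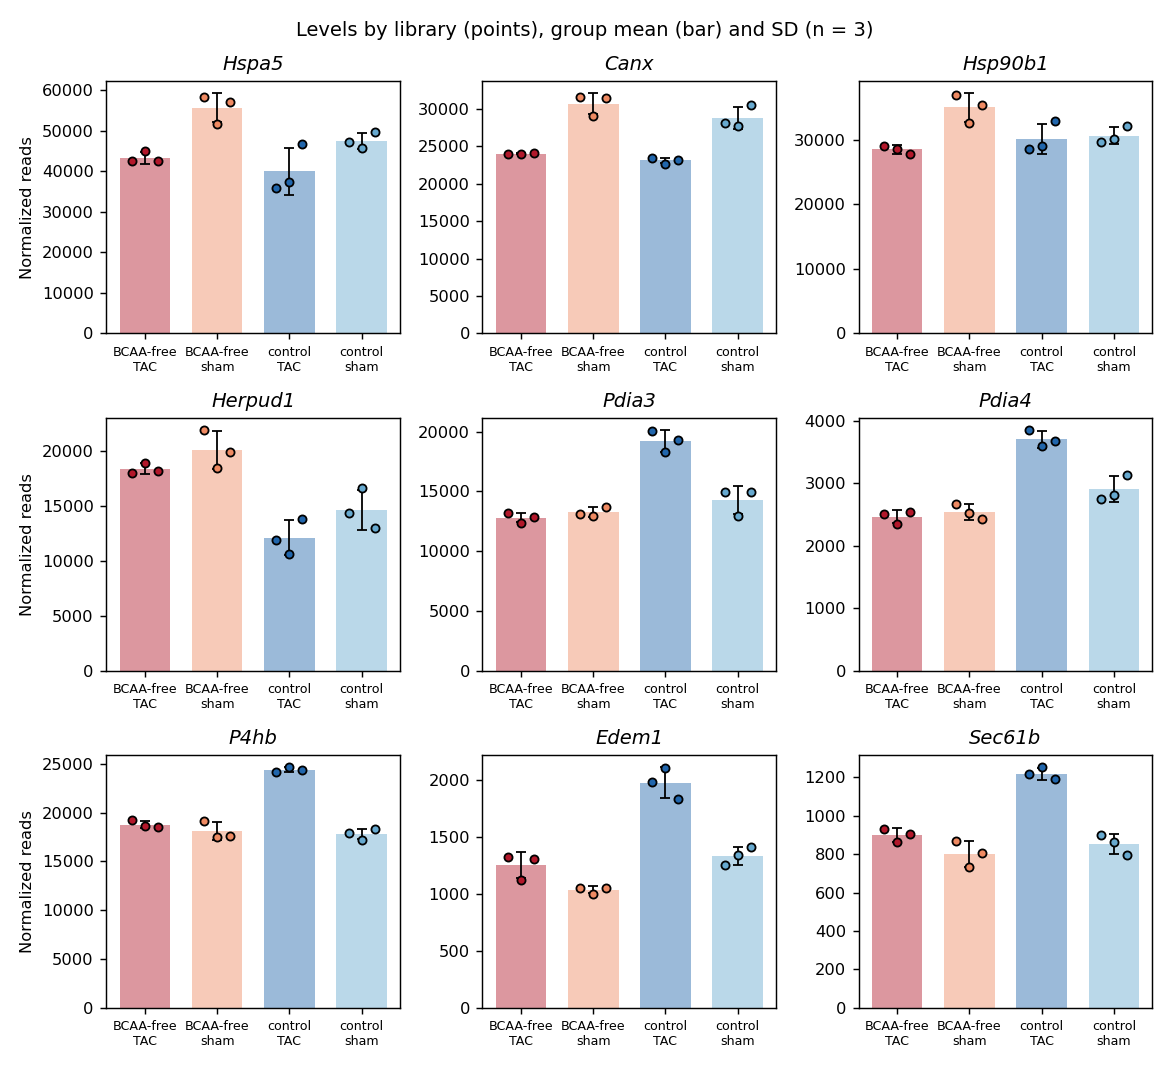
Normalized reads of 9 genes by group (bars, mean; whiskers, SD, n = 3; points, libraries; linear axes from 0). Hspa5, Canx and Hsp90b1 are lower in BCAA-free TAC than in BCAA-free sham libraries, and Pdia3, Pdia4, P4hb, Edem1 and Sec61b stand above all other groups in control diet TAC libraries.

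On the control diet, disulfide enzymes, a degradation gene and channel subunits rose with TAC. Of the 32 members 6 rose, the disulfide enzymes Pdia3, Pdia4 and P4hb, the degradation gene Edem1 and the channel subunits Sec61a1 and Sec61b, and 1 fell, the sensor gene Ern1. Of the 18305 genes tested, 9.17% were called higher and 5.64% lower. The members' median log2 change was 0.15, with 22 of 32 above 0, and the median of all genes was -0.02. At an unadjusted p under 0.05, 9 members were higher and 2 lower, where 2951 of the 18305 genes tested were higher and 2494 lower. In this comparison edgeR called 4 higher and 1 lower (1638 and 1125 of the 18305 genes tested). DESeq2 called 6 higher (11.8% of genes tested) and 2 lower (8.06%).

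Edem1 (chr6:108828641-108859356) codes for a lectin-like protein that trims mannose from misfolded glycoproteins and sends them to degradation. It had 1984, 2107 and 1837 normalized reads in control diet TAC, against 1254, 1342 and 1408 in control diet sham libraries. All TAC libraries lay far above sham, and the log2 change of 0.56 ± 0.0995 (adjusted p = 0.00737) is a 1.47-fold rise. Sec61b, the beta subunit of the channel, had 1217, 1252 and 1189 normalized reads in control diet TAC, against 898, 865 and 797 in control diet sham libraries. There was no overlap, at 0.51 ± 0.101 (adjusted p = 0.0114). Sec61a1, the pore subunit, had 4410, 4415 and 3587 normalized reads in control diet TAC, against 2929, 3232 and 3291 in control diet sham libraries. TAC 3 was the lowest of its group and still above sham, and the log2 change was 0.38 ± 0.109 (adjusted p = 0.0479). The third translocon gene, Ssr1, was at 0.22 (adjusted p = 0.153).

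P4hb (chr11:120560298-120573253) codes for protein disulfide isomerase, which is also the beta subunit of the prolyl hydroxylase that modifies collagen. It had 24148, 24646 and 24334 normalized reads in control diet TAC, against 17928, 17238 and 18294 in control diet sham libraries. The TAC libraries were close together and above every sham library, at 0.44 ± 0.0946 (adjusted p = 0.0153). Pdia3 (chr2:121413775-121438687), for ERp57, the isomerase that works with calnexin and calreticulin, had 20095, 18288 and 19272 normalized reads in control diet TAC, against 14949, 12939 and 14977 in control diet sham libraries. The groups were apart, at 0.42 ± 0.107 (adjusted p = 0.0299). Pdia4, for the related ERp72, had 3846, 3587 and 3670 normalized reads in control diet TAC, against 2744, 2814 and 3135 in control diet sham libraries, again with no overlap, at 0.35 ± 0.0951 (adjusted p = 0.0405). Pdia6 was at 0.15 and Ero1l at -0.04, and neither was called.

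The HSP70 and HSP90 chaperones were not called on this diet. Hspa5 had 35771, 37315 and 46665 normalized reads in control diet TAC, against 47052, 45817 and 49646 in control diet sham libraries. TAC 1 and TAC 2 lay well below sham while TAC 3 lay inside the range of sham, and the log2 change was -0.27 ± 0.13 (adjusted p = 0.206). Canx had 23437, 22681 and 23188 normalized reads in control diet TAC, against 28044, 27713 and 30451 in control diet sham libraries, which did not overlap, at -0.32 ± 0.0993 (adjusted p = 0.0603). Dnajb9 was spread most widely in TAC libraries, at 3247, 3751 and 5638 normalized reads in control diet TAC, against 4258, 4697 and 4516 in control diet sham libraries, so TAC 3 lay above every sham library and the others below, at -0.14 ± 0.184. Hsp90b1 had 28542, 29080 and 32855 normalized reads in control diet TAC, against 29728, 30150 and 32088 in control diet sham libraries, which overlapped. Calr, Hsp90b1 and the other partners lay between -0.11 (Hyou1) and 0.21 (Sdf2l1) on the log2 scale. The other degradation genes lay between -0.28 (Herpud1) and 0.33 (Edem2), and the secreted proteins Manf and Creld2 were at 0.22 and 0.31, with no call.

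Control diet TAC 3 bears on much of this. Without it, 8 members were called higher (13.6% of genes tested) and 5 lower (12.1%), the 5 being Hspa5, Canx, Ern1, Dnajb9 and Herpud1. Counts of members called higher were 2 without TAC 1, 4 without TAC 2, 2 without sham 1 or without sham 2, and 1 without sham 3. Over all genes, 1678 were called higher with every library, 881 without TAC 1 and 1111 without TAC 2. Without sham 1, sham 2 and sham 3 they were 1051, 962 and 984. Edem1 was called in each of these 6 fits, and Sec61b in all but the one without sham 3 (adjusted p = 0.0609). The fall of Ern1 was lost without TAC 1 and without each of the 3 sham libraries, with an adjusted p of up to 0.134. With all 4 groups in 1 model 10 members were called higher (13.8% of genes tested), the 6 above with Edem2, Xbp1, Creld2 and Ssr1, and 2 lower (11.0%), Ern1 and Canx. Fibroblast markers summed to 233138 to 385711 normalized reads in control diet TAC and 80153 to 104213 in control diet sham libraries, with 6 of 8 called higher. Macrophage markers summed to 26039 to 28985 in control diet TAC and 13819 to 18079 in control diet sham libraries, with 5 of 7 called higher. Cardiomyocyte markers summed to 4177019 to 5012387 in control diet TAC and 5121513 to 5665837 in control diet sham libraries, with 0 of 8 called either way. Single cardiomyocyte markers went both ways. Myh6 and Ryr2 were lower and Actc1, Mybpc3 and Tnnc1 higher in these TAC libraries, and Tnnt2, Tnni3 and Myl2 overlapped. Plasma cells, which secrete much protein, had marker sums of 1578 to 1943 in control diet TAC and 996 to 1349 in control diet sham libraries, with 1 of 7 called higher. No fibroblast or macrophage marker was at 0 in any library. The part of these cell types in the rises of the ER genes was not tested.

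**Figure D3:**
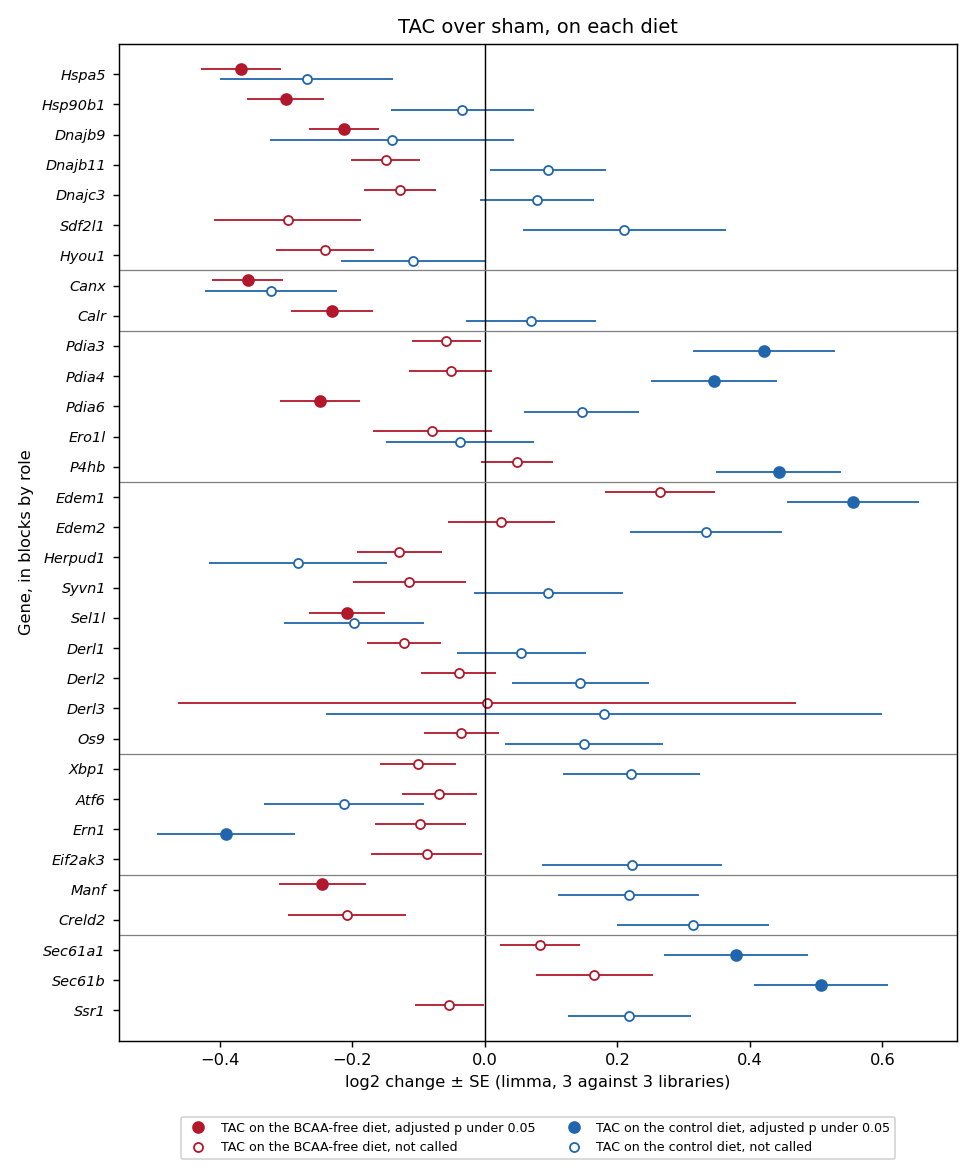
log2 change with TAC over sham for each gene on the BCAA-free diet (red) and on the control diet (blue), with SE from limma, 3 libraries against 3; filled points have an adjusted p below 0.05. On the BCAA-free diet the filled points are 8 falls, led by Hspa5 (-0.37) and Canx (-0.36), and on the control diet they are 6 rises, led by Edem1 (0.56), and the fall of Ern1 (-0.39).

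The diets' responses to TAC were compared directly, as the TAC change on the BCAA-free diet minus that on the control diet in a model of all 12 libraries. By limma, 0 of 32 members were called in either direction, and of 17493 genes tested 0.171% were called higher and 0.503% lower. The members' median difference was -0.26 in log2 units, with 29 of 32 below 0, and that of all genes was 0.02. At an unadjusted p under 0.05, 17 members were lower (8.11% of all genes tested were) and 1 was higher (1145 of the 17493 genes were). For the difference edgeR called 0 members, and of all 17493 genes it called 33 higher and 108 lower. DESeq2 called 7 lower (3.11% of genes tested) and 0 higher. The 7 were Pdia3, Pdia4, Pdia6, Dnajb11, Manf, Creld2 and P4hb. The smallest adjusted p by limma was that of Pdia3, at -0.48 ± 0.111 (adjusted p = 0.0647), followed by Pdia6 at -0.40 ± 0.0961 (adjusted p = 0.0748) and P4hb at -0.39 ± 0.0966 (adjusted p = 0.0755). Creld2, a secreted ER stress protein, had the lowest difference, at -0.52 ± 0.142 (adjusted p = 0.0975), and Ern1 the highest, at 0.29. For Hspa5 the difference was -0.10 ± 0.143 and for Canx -0.04 ± 0.101, so the falls of these chaperones on the BCAA-free diet were not shown to differ from their values on the control diet. Without control diet TAC 3, 9 members were called lower (4.95% of genes tested), namely Pdia3, Pdia4, Pdia6, Edem2, Eif2ak3, Manf, Creld2, Sec61a1 and P4hb. With any other library left out the count was 0, and 11 to 111 of all genes tested were called lower. Without the libraries high in structured RNA limma called 0 members (0.0458% of genes tested were lower), and 10 members were lower at an unadjusted p under 0.05, with Pdia3 at -0.45 (adjusted p = 0.294).

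Among TAC hearts the BCAA-free diet went with lower RNA of 4 of the 5 disulfide enzymes, of the channel subunits Sec61a1 and Sec61b, and of Edem1, Manf and Sdf2l1. Of the 32 members 9 were lower, and 1, Herpud1, was higher. Of the 18039 genes tested, 10.5% were called lower and 6.23% higher. The members' median log2 change was -0.20, with 24 of 32 below 0, and that of all genes was 0.02. At an unadjusted p under 0.05, 15 members were lower and 3 higher, where 3086 of the 18039 genes tested were lower and 2571 higher. Here edgeR called 9 lower and 1 higher (1874 and 1185 of the 18039 genes tested). DESeq2 called 12 lower (12.8% of genes tested) and 1 higher (8.47%). With all 4 groups in 1 model 15 were called lower (14.5%) and 2 higher (10.6%). This comparison shares its libraries with both TAC comparisons above.

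Pdia3 had 13153, 12381 and 12840 normalized reads in BCAA-free TAC libraries, against the 18288 to 20095 of control diet TAC libraries given above. The groups lay far apart, with a log2 change of -0.58 ± 0.0956 (adjusted p = 0.00379), a level of 0.668 of that on the control diet. Pdia4 had 2505, 2338 and 2530 normalized reads in BCAA-free TAC, against 3587 to 3846 in control diet TAC libraries. It had the smallest adjusted p of the members here, at -0.59 ± 0.0891 (adjusted p = 0.00261). P4hb had 19211, 18614 and 18514 normalized reads in BCAA-free TAC, against 24148 to 24646 in control diet TAC libraries, at -0.37 ± 0.0933 (adjusted p = 0.025). Pdia6, at 7308 to 7713 normalized reads in BCAA-free TAC libraries, was below the 9607, 9586 and 9357 of control diet TAC libraries, at -0.33 ± 0.0876 (adjusted p = 0.0306). Of the 5 disulfide enzymes Ero1l, the oxidase that recharges the isomerases, was the one not called, at -0.05.

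Edem1 had 1328, 1118 and 1307 normalized reads in BCAA-free TAC, against 1837 to 2107 in control diet TAC libraries. This was the largest fall of any member, at -0.66 ± 0.107 (adjusted p = 0.00367). Herpud1 (chr8:94386438-94395377) codes for HERP, a membrane protein of the same degradation complex, and went the other way. It had 18030, 18923 and 18196 normalized reads in BCAA-free TAC, against 11918, 10633 and 13793 in control diet TAC libraries. Every BCAA-free library was above every control diet library, at 0.61 ± 0.117 (adjusted p = 0.00742), a 1.53-fold higher level. Sec61a1 had 3002, 2757 and 3032 normalized reads in BCAA-free TAC, against 3587 to 4415 in control diet TAC libraries, at -0.49 ± 0.107 (adjusted p = 0.014). Sec61b had 933, 861 and 905 in BCAA-free TAC, against 1189 to 1252 in control diet TAC libraries, at -0.43 ± 0.0973 (adjusted p = 0.0154). Manf, at 2224 to 2343 normalized reads in BCAA-free TAC libraries, was below the 3264, 2803 and 3465 of control diet TAC libraries, at -0.47 ± 0.105 (adjusted p = 0.0153). Sdf2l1, a luminal partner of the J proteins, was at -0.52 ± 0.144 (adjusted p = 0.0366). Hspa5, Canx and Hsp90b1 were at 0.13, 0.06 and -0.07 and were not called. Calr (-0.29), Creld2 (-0.35) and Ssr1 (-0.25) were not called by limma but were called lower by DESeq2, and each was lower in every BCAA-free library than in every control diet library. The share of all genes without overlap between these groups was not counted. The other chaperone partners lay between -0.16 (Dnajb11) and 0.17 (Dnajb9), and the other degradation genes between -0.28 (Edem2) and 0.14 (Derl3).

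Pdia3, Pdia4, Edem1 and Herpud1 were called with any 1 of the 6 libraries left out. The count of lower members was 3 without BCAA-free TAC 2, BCAA-free TAC 3 or control diet TAC 1, 6 without BCAA-free TAC 1 and 8 without control diet TAC 2. Over all genes, 1901 were called lower with every library. They were 925, 1129 and 1371 without BCAA-free TAC 2, 3 and 1, and 1071 and 1317 without control diet TAC 1 and 2. Without control diet TAC 3 the count of lower members was 13 (17.3% of genes tested), with 3 higher (16.2%), Hspa5, Dnajb9 and Herpud1. Without BCAA-free TAC 1 and 3, which are high in structured RNA, 0 members were called in either direction from a fit with 1 BCAA-free TAC library, where limma called 0.318% of all genes higher and 2.67% lower. The log2 changes in that fit were 0.66 for Herpud1, -0.63 for Pdia3, -0.66 for Pdia4 and -0.82 for Edem1. Fibroblast marker sums were 88540 to 113035 in BCAA-free TAC, against 233138 to 385711 in control diet TAC libraries, with 6 of 8 called lower. Macrophage marker sums were 14573 to 19970 in BCAA-free TAC, against 26039 to 28985 in control diet TAC libraries, with 7 of 7 called lower. Cardiomyocyte marker sums were 6100089 to 6478774 in BCAA-free TAC, against 4177019 to 5012387 in control diet TAC libraries, with 3 of 8 called higher. The part of these cell types in the lower ER gene levels was not tested.

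**Figure D4:**
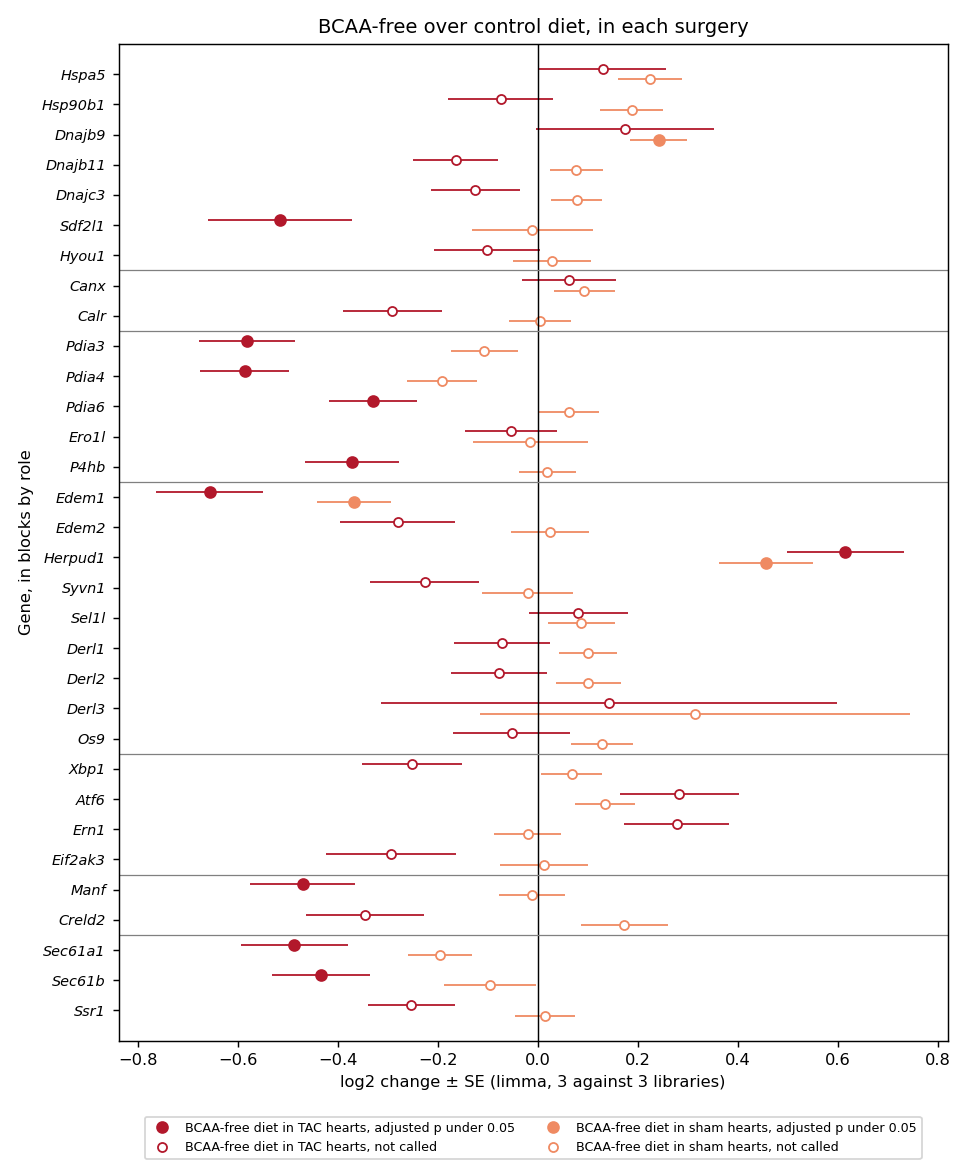
log2 change of the BCAA-free over the control diet for each gene in TAC hearts (dark red) and in sham hearts (orange), with SE from limma, 3 libraries against 3; filled points have an adjusted p below 0.05. In TAC hearts 9 genes are lower, among them Edem1 (-0.66) and Pdia4 (-0.59), and Herpud1 is higher (0.61), and in sham hearts Herpud1 (0.46) and Dnajb9 (0.24) are higher and Edem1 (-0.37) is lower.

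In sham hearts the diet moved few members. Of 32, 2 were higher, Herpud1 and Dnajb9, and 1 was lower, Edem1, while 1.27% of the 17862 genes tested were called higher and 2.27% lower. The members' median log2 change was 0.045 and that of all genes 0.0019. Herpud1 had 21885, 18428 and 19911 normalized reads in BCAA-free sham, against 14309, 16596 and 13004 in control diet sham libraries. All libraries on the BCAA-free diet were higher, at 0.46 ± 0.0941 (adjusted p = 0.0348). Dnajb9 was at 0.24 ± 0.0578 (adjusted p = 0.0499), with its 5184 to 5457 normalized reads in BCAA-free sham libraries above the 4258 to 4697 of control diet sham libraries. Edem1 had 1054, 1000 and 1051 normalized reads in BCAA-free sham, against 1254 to 1408 in control diet sham libraries, at -0.37 ± 0.0745 (adjusted p = 0.0289). Hspa5 was higher in every BCAA-free sham library (51591 to 58298) than in every control diet sham library (45817 to 49646), but its log2 change of 0.22 ± 0.0633 was not called (adjusted p = 0.0783). DESeq2 called it, as 1 of 3 members higher (3.17% of genes tested), and 1 member lower (5.35%). Pdia4 was at -0.19 (adjusted p = 0.158), Sec61a1 at -0.20, and the members not named here between -0.11 (Pdia3) and 0.31 (Derl3). Herpud1 and Edem1 thus had the same direction of the diet difference in sham and TAC hearts. None of the 3 calls held with every single library left out. Without BCAA-free sham 1, sham 2 or sham 3, or control diet sham 3, 0 members were called, without control diet sham 1 Edem1 alone was called, and the adjusted p rose to 0.138 for Herpud1, 0.186 for Dnajb9 and 0.109 for Edem1. Over all genes, 227 were higher and 406 lower with every library. They were 14 and 36 without BCAA-free sham 1, 57 and 168 without sham 2, and 34 and 102 without sham 3. Without control diet sham 1 and sham 3 they were 172 and 281, and 74 and 110. With all 4 groups in 1 model limma called 0 members (0.198% of genes tested were higher and 0.689% lower). Fibroblast marker sums were 66319 to 73103 in BCAA-free sham, against 80153 to 104213 in control diet sham libraries, with 3 of 8 called lower, and 1 cardiomyocyte, 1 endothelial and 1 macrophage marker were also called lower. The part of these markers in the diet differences was not tested.

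Among the sensors and Xbp1, limma called Ern1 alone in the main fits, in 1 comparison. With all 4 groups in 1 model, limma called Ern1 lower and Xbp1 higher with TAC on the control diet. In that model Ern1 was also called higher and Xbp1 lower on the BCAA-free diet in TAC hearts. Ern1, for the kinase and ribonuclease IRE1 that splices Xbp1 RNA, had 1359, 1374 and 1426 normalized reads in BCAA-free TAC and 1516, 1400 and 1520 in BCAA-free sham libraries, which overlapped. It had 1155, 1263 and 1035 in control diet TAC and 1495, 1471 and 1522 in control diet sham libraries. The control diet TAC libraries were the lowest of the 12, and the change with TAC was -0.10 ± 0.0692 on the BCAA-free diet (adjusted p = 0.446) and -0.39 ± 0.104 on the control diet (adjusted p = 0.0361). The difference between diets was 0.29 ± 0.116 and was not called (adjusted p = 0.248). Eif2ak3, for PERK, the kinase that slows translation, had 831, 854 and 858 normalized reads in BCAA-free TAC, 833, 957 and 907 in BCAA-free sham, 1135, 1163 and 859 in control diet TAC and 957, 858 and 853 in control diet sham libraries. Control diet TAC 1 and 2 stood above the rest, and TAC 3 was level with sham. Its changes with TAC were -0.09 on the BCAA-free diet and 0.22 on the control diet, and neither was called. Without control diet TAC 3, limma called Eif2ak3 higher with TAC on the control diet (13.6% of genes tested were). In that setting it was also called lower on the BCAA-free diet in TAC hearts (17.3% of genes were).

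Atf6, for the membrane-bound transcription factor that is cut in the Golgi, had 10831, 10670 and 11179 normalized reads in BCAA-free TAC, 11785, 10645 and 11748 in BCAA-free sham, 9032, 10464 and 7667 in control diet TAC and 10109, 10216 and 10731 in control diet sham libraries. Its lowest value was that of control diet TAC 3. The changes with TAC were -0.07 on the BCAA-free diet and -0.21 on the control diet, and neither was called. Xbp1, the target of IRE1, had 4568, 4505 and 4373 normalized reads in BCAA-free TAC, 5046, 4527 and 4807 in BCAA-free sham, 4967, 5189 and 5942 in control diet TAC and 4597, 4361 and 4734 in control diet sham libraries. On the BCAA-free diet TAC and sham libraries overlapped, at -0.10 (adjusted p = 0.32), and on the control diet every TAC library was above every sham library, at 0.22 (adjusted p = 0.193). For the diet, Ern1, Eif2ak3, Atf6 and Xbp1 were at 0.28, -0.29, 0.28 and -0.25 in TAC hearts and at -0.02, 0.01, 0.13 and 0.07 in sham hearts. The tables count Xbp1 per gene, so spliced and unspliced RNA are not separated, and the activity of the sensors was not measured.

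The changes can be set beside the promoters shown above. Of the 11 members with an element in the window 5 fell with TAC on the BCAA-free diet (Hspa5, Canx, Calr, Hsp90b1 and Pdia6), of the 15 with a window but no element 2 did (Dnajb9 and Sel1l), and of the 6 without a window 1 did (Manf). Of all genes tested 4.41% were called lower. With all 4 groups in 1 model, Canx was the 1 member called lower. With TAC on the control diet, where 9.17% of all genes tested were called higher, the rises were in 0 of 11, 5 of 15 (Pdia3, Pdia4, Edem1, Sec61b and P4hb) and 1 of 6 (Sec61a1). For the 0, limma had 1 of the 11 higher at an unadjusted p under 0.05, and edgeR and DESeq2 called 0. In TAC hearts on the BCAA-free diet, 1 of 11, 6 of 15 and 2 of 6 were lower (10.5% of all genes tested). There 1 of the 11, Herpud1, was higher, and 0 of the 15 and 0 of the 6 (6.23% of all genes). These counts are small and are given without a test. The median log2 changes of the 11 and the 15 were -0.21 and -0.05 for TAC on the BCAA-free diet and 0.08 and 0.22 for TAC on the control diet. No match in a window says only that these letters are not within it.

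Of 87 other genes of the same pathways, 3 rose and 5 fell with TAC on the BCAA-free diet, and 12 rose and 2 fell on the control diet. For comparison, 3.31% of all genes tested rose and 4.41% fell on the BCAA-free diet, and 9.17% rose and 5.64% fell on the control diet. In TAC hearts 1 was higher and 14 were lower on the BCAA-free diet than on the control diet, against 6.23% higher and 10.5% lower over all genes. Without the libraries high in structured RNA, 1 of the 87, the channel subunit gene Sec61g, was higher and 1, March6, lower with TAC on the BCAA-free diet. For the diet in TAC hearts limma then called none of the 87. In sham hearts limma called 0 for the diet. There 12 were higher and 8 lower at unadjusted p under 0.05, where 1627 of all 17862 genes tested were higher and 1929 lower. For the same comparison edgeR called 1 higher and 0 lower (240 and 460 of all genes). DESeq2 called 4 higher and 2 lower (3.17% and 5.35% of all genes). Qsox1, a sulfhydryl oxidase of the secretory route, rose by 0.43 with TAC on the BCAA-free diet and by 0.93 on the control diet. Serp1, a translocon partner, rose by 0.29 on the BCAA-free diet and by 0.60 on the control diet. Without BCAA-free TAC 1 and 3, Qsox1 was at 0.25 (adjusted p = 0.153) and Serp1 at 0.27 (adjusted p = 0.131) on the BCAA-free diet. March6, a ubiquitin ligase of the ER membrane, fell on both, at -0.31 on the BCAA-free and -0.57 on the control diet, and so did the transmembrane thioredoxin Tmx1, at -0.26 on the BCAA-free and -0.31 on the control diet. On the BCAA-free diet Mlec, a lectin that binds glucosylated glycans, was at -0.23, and Chac1, a target of ATF4 that breaks down glutathione, was at -0.51. In TAC hearts Txndc5, Serp1, Qsox1 and Pdia5 had the smallest p among those lower on the BCAA-free diet, at -0.69, -0.52, -0.55 and -0.60, and March6 was the one higher, at 0.48.

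For the difference between the diets' responses to TAC, 2 of the 87 were called, both lower, where 0.503% of all genes were. Txndc5, a disulfide isomerase, had 4513, 3979 and 3913 normalized reads in BCAA-free TAC, 3767, 3845 and 3639 in BCAA-free sham, 7118, 6779 and 6187 in control diet TAC and 4021, 3843 and 3783 in control diet sham libraries. The control diet TAC libraries stood apart from all others. The difference was -0.64 ± 0.107 (adjusted p = 0.0221). Spcs3, a subunit of signal peptidase, had 5758, 4753 and 4868 normalized reads in BCAA-free TAC, 5254, 5646 and 5301 in BCAA-free sham, 6385, 7319 and 7931 in control diet TAC and 4615, 4979 and 4936 in control diet sham libraries. Here too every control diet TAC library was highest, and the difference was -0.65 ± 0.132 (adjusted p = 0.0433). Both calls were lost without the libraries high in structured RNA, where Txndc5 was at -0.68 (adjusted p = 0.14) and Spcs3 at -0.76 (adjusted p = 0.142).

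Of these genes, 3 that can act downstream of PERK were followed in every comparison. Their RNA does not measure PERK activity, and the part of PERK in their changes was not tested. They belong to a list of 18 stress-sensor outputs and regulators. With TAC on the BCAA-free diet limma called 1 of the 18 higher, Atf4 (3.31% of all genes tested), and 2 lower, Chac1 and Tmbim6 (4.41%). With TAC on the control diet 2 of the 18 were higher (9.17%) and 0 lower (5.64%). For the diet in TAC hearts 0 were higher (6.23%) and 3 lower (10.5%). In sham hearts 0 were called for the diet (1.27% of all genes higher, 2.27% lower). For the difference of responses 0 were called (0.171% higher, 0.503% lower). Atf4, for a transcription factor, rose with TAC on the BCAA-free diet by 0.32 ± 0.0663 (adjusted p = 0.014), with 7157, 5975 and 6197 normalized reads in BCAA-free TAC and 5111, 5070 and 5209 in BCAA-free sham libraries, which did not overlap. Without BCAA-free TAC 1 and 3 Atf4 was at 0.22 (adjusted p = 0.146). On the control diet Atf4 was at 0.29 ± 0.116 (adjusted p = 0.135), and the difference between diets was 0.03 ± 0.136 (adjusted p = 0.951). Ddit3, for CHOP, had 1404, 1481 and 1558 normalized reads in BCAA-free TAC, 1162, 813 and 1206 in BCAA-free sham, 1286, 1258 and 1334 in control diet TAC and 1432, 1501 and 1180 in control diet sham libraries. Its changes with TAC were 0.50 (adjusted p = 0.0607) on the BCAA-free diet and -0.09 on the control diet, with a difference of 0.58 ± 0.189 (adjusted p = 0.159). Ppp1r15a, for GADD34, which restores translation, was at -0.34 with TAC on the BCAA-free diet and -0.11 on the control diet, and varied from 1692 to 3490 normalized reads among the 12 libraries. For the diet, Atf4, Ddit3 and Ppp1r15a were at -0.16, -0.39 and -0.07 in sham hearts and at -0.12, 0.20 and -0.29 in TAC hearts, and none was called.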

How the data were processed

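The authors deposited 4 tables, each comparing 2 groups of 3 libraries. Per the file headers they give a normalized signal per library, a log2 fold change of the authors, p-values and adjusted p-values. The signal values are read counts that the authors divided by a size factor per library, set within each table. All 431838 deposited values checked (100%) were whole reads within a tolerance of 0.0001, and 0 of 212169 reads compared differed between tables. No gene had fewer than 61 reads in a table. Trimmomatic 0.36, STAR 2.5.2b, Subread 1.5.2 and DESeq2 stand in the submitters' processing notes, with GRCm38 and mm10 as builds. What each tool did, which annotation was counted and whether strand was used is not given in the sources here. Exons of Pdia3, Pdia4, Pdia6, Hsp90b1, Dnajb9, Manf, Eif2ak3, Syvn1, Derl2 and Sec61a1 overlap other annotated genes and could share reads with them.

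The design foresaw raw counts or normalized counts, and the deposited unit called for limma-trend with robust empirical Bayes (limma 3.58.1, R 4.3.3) on log2(value + 1), a scale that understates changes of low genes. It was run on genes with a mean of at least 10, 3 libraries against 3 within a table, or on 12 libraries for the difference of TAC responses. Called means a Benjamini-Hochberg adjusted p below 0.05 over all genes tested. Alternatives were edgeR 4.0.16 and DESeq2 1.42.0 on recovered reads, other scalings, pseudocounts and filters, a replicate block and leaving out each library. Levels shown use joint size factors of the 12 libraries (median of ratios), so their ratios can differ slightly from the log2 changes. The tests were also run on simulated reads with the same spread for every gene and no outlying library. Such reads cannot show how the tests behave with a library like control diet TAC 3. Positions are GRCm38, from GENCODE; promoters are RefSeq, GRCm38.p6. Members, roles, other pathway genes and marker lists were chosen with earlier results of these data known. Values of every library are given for Hspa5, the 4 sensor genes and the 6 called members with the smallest p in each comparison; other pathway genes are named where they are among the 4 with the smallest p per direction, plus Atf4, Ddit3 and Ppp1r15a.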

Additional observations from a re-analysis of the deposited data

Results flagged for a closer look

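For 4 members every BCAA-free TAC library lay below its sham libraries while every control diet TAC library lay above its own. How often other genes showed this pattern was not counted, so whether 4 members is an unusual number cannot be told. The log2 difference of the TAC responses was -0.46 for Manf, -0.40 for Pdia6, -0.25 for Dnajb11 and -0.21 for Dnajc3 (BCAA-free minus control diet). The difference was tested in the model of 12 libraries, and limma called none of the 4, with adjusted p-values of 0.0903, 0.0748, 0.204 and 0.304 in that order. DESeq2 called Manf, Pdia6 and Dnajb11, and limma called Manf and Pdia6 without control diet TAC 3.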

How the results depend on the processing

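Of 1460 values of 20 genes in 100 gene comparisons under alternative settings, 1296 kept their side of the threshold, 133 lost a call and 31 gained one. Where either fit gave a call, 0 changed direction. Changes of direction between fits without a call were not counted. Sel1l had such a change for the difference of responses, at -0.01 in the main fit and 0.02 without the libraries high in structured RNA. Counts of called members moved more. DESeq2 called 1 member higher with TAC on the BCAA-free diet, 2 lower with TAC on the control diet and 7 lower for the difference of responses. Joint TMM scaling left 1 member higher for the diet in sham hearts. With all 4 groups in 1 model, TAC on the BCAA-free diet had 1 lower, TAC on the control diet 10 higher and 2 lower, diet in sham hearts 0 higher and 0 lower, and diet in TAC hearts 2 higher and 15 lower. Without the libraries high in structured RNA, a choice made after seeing the data, TAC on the BCAA-free diet had 1 lower and diet in TAC hearts 0 higher and 0 lower, with the single BCAA-free TAC library assumed to vary like the other groups. With 1 library left out, TAC on the BCAA-free diet had 0 to 1 higher and 2 to 6 lower, TAC on the control diet 1 to 8 higher and 0 to 5 lower, diet in sham hearts 0 to 2 higher and 0 to 1 lower, diet in TAC hearts 1 to 3 higher and 3 to 13 lower, and the difference 0 higher and 0 to 9 lower. Calls over all genes also moved in these fits. The replicate numbers did not pair the samples: deviations of same-numbered libraries correlated at -0.176 to 0.111. With replicate number as a block, the lower count was 3 for TAC on the BCAA-free diet, 0 for TAC on the control diet, 0 for diet in sham hearts and 5 for diet in TAC hearts, the higher count 2 for TAC on the control diet and 0 for diet in sham hearts, and the difference stayed at 0. The cause of these shifts was not tested. The smallest change called in a member was that of Sel1l with TAC on the BCAA-free diet (-0.21), and Derl3 had too few reads to judge.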

Other observations

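In the authors' deposited tables, with their adjusted p below 0.05, 1 member was higher and 9 were lower with TAC on the BCAA-free diet, and 6 were higher and 2 lower with TAC on the control diet. For the diet, the authors' deposited tables give 3 higher and 1 lower in sham hearts, and 1 higher and 11 lower in TAC hearts. The share of all genes under the authors' cut was not counted here. In the authors' deposited table for sham hearts Hspa5 had a log2 fold change of 0.23 with an adjusted p of 0.0256.

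Atrial markers summed to 24851 to 28965 normalized reads in BCAA-free TAC, 8348 to 18699 in BCAA-free sham, 16736 to 39378 in control diet TAC and 5286 to 28607 in control diet sham libraries.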
